A study of Homo sapiens with 12 samples.

Results

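Of 2220 pairs of polyadenylation sites that changed use after loss of TDP-43, 548 had their sites more than 10000 nt apart on the genome. Each pair belongs to 1 gene and joins a site whose share of the gene's transcripts fell with a site whose share rose. The 548 were taken by position alone: the distance between both sites in the authors' deposited table of 3' end-seq changes had to exceed 10000 nt. The size and direction of the change played no part in the choice, and no site belonged to more than 1 pair. Another 1146 pairs lay over 1000 and up to 10000 nt apart and 526 lay up to 1000 nt apart.

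Cleavage and polyadenylation set where a transcript ends. Sites a short way apart usually share a last exon and differ in the length of the 3' untranslated region (3'UTR). Sites separated by much of a gene more often lie in different exons or in an intron, so the choice between them can change the encoded protein or truncate it, and it competes with splicing of the intron around the upstream site. TDP-43, encoded by TARDBP, is a nuclear RNA-binding protein that binds GU-rich sequence, represses cryptic exons and cryptic transcript ends, and is cleared from the nucleus of affected neurons in ALS and FTD (amyotrophic lateral sclerosis and frontotemporal dementia).

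The neurons came from the established line WA01, human embryonic stem cells of wild-type genotype, by overexpressing the transcription factor NGN2, which drives a cortical neuron fate. They carried either a scrambled hairpin RNA (shControl) or a hairpin against TDP-43 (shTDP-43), and both groups shared the line, the NGN2 induction and the time. Sample titles give day 7 without naming the step it counts from. The 12 libraries comprised 6 of RNA-seq and 6 of 3' end-seq (QuantSeq REV, which primes on the poly(A) tail), each with 3 shControl and 3 shTDP-43 replicates. The labels do not say if replicates were grown separately, so the spread behind the authors' p-values may be technical. All values are comparisons between the groups as deposited, with no value per library, so no spread between libraries can be given, the depth is unknown, and TARDBP itself and the neuronal markers were not analysed here. A site is called upstream or downstream by the direction of transcription. In pairs called shorter the upstream site rose, and in pairs called longer the downstream site rose.

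Few of these sites could be shown as sequence, because no genome was used. The RefSeq table of gene starts (GRCh38.p14) covered 3 member sites, and for 2 of them the 30 bases up to and including the site were in the window. They are shown for the polyadenylation signal, the hexamer that the cleavage complex reads upstream of the cut, in capitals. The rising site of BNIPL, a gene called longer, is at position 151047584 on the plus strand of chromosome 1 (hg38), inside the gene and within the start window of C1orf56. The falling site of CPB2-AS1, a long noncoding RNA gene called longer, is at position 46052967 on the plus strand of chromosome 13, close to the start of its own RefSeq gene and within the start window of ZC3H13.
BNIPL rising site: tagaggctAATAAActgcgatgagacattt
CPB2-AS1 falling site: taaaattcccaATTAAAagtgaatttaagt
Each window held 1 signal, AATAAA at BNIPL and ATTAAA at CPB2-AS1. Searched on both strands of the first 30 bases of all 34943 start windows, AATAAA was found in 2.79% and ATTAAA in 1.79%. The 20 bases after the site held 7 A at BNIPL and 3 A at CPB2-AS1. QuantSeq REV can also prime on A-rich stretches inside a transcript, and the bases after the other member sites were not analysed here.

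Some intervals held a microRNA, a short RNA cut from a hairpin in a longer host transcript, that lies on the stretch of host RNA that one site includes and the other leaves out. A hairpin lay between the sites in 13 of 548 pairs (2.37%), beside 0.676% of all 2220 pairs. It did in 2 of 1146 pairs 1000 to 10000 nt apart and 0 of 526 up to 1000 nt apart. A longer interval has more room for a hairpin, so the distance limit itself raises this share. The microRNA sequences, from RefSeq (GRCh38.p14), are shown for 3 hosts, with the seed (bases 2 to 8) in capitals; miR-9 and miR-128 are abundant in neurons.
hsa-miR-9-5p (MIR9-1HG): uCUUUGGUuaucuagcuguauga
hsa-miR-9-3p (MIR9-1HG): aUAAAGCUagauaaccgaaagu
hsa-miR-128-3p (ARPP21): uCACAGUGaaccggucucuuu
hsa-miR-128-2-5p (ARPP21): gGGGGCCGauacacuguacgaga
hsa-miR-1288-3p (PIGL): uGGACUGCccugaucuggaga
hsa-miR-1288-5p (PIGL): gCAGAUCAggacuguaacucacc
In MIR9-1HG, on the minus strand of chromosome 1, use moved downstream from position 156446411 to position 156404256, past the miR-9-5p stretch at 156420392 to 156420414, with a usage change of 0.568 in the authors' deposited table. The falling site lay before the RefSeq start of MIR9-1HG, and an annotated start of the gene lay between the sites. In ARPP21, which encodes a cAMP-regulated phosphoprotein, use moved upstream from position 35794458 to position 35643372 on chromosome 3, so that the rising site came before the miR-128-3p stretch at 35744527 to 35744547, with a change of -0.152 in the authors' deposited table. PIGL, an enzyme of glycosylphosphatidylinositol anchor synthesis, also moved upstream of its hairpin, from position 16326253 to position 16218213 on chromosome 17, with a change of -0.527 in the authors' deposited table. The 13 hosts divided into 8 called longer and 5 called shorter. The others were PYROXD2, TLN1, BCL7C, KIFC3, POLR2F, ZC3HAV1 and ENDOV among longer pairs, and RBFOX1, SOX6 and ENSG00000291130 among shorter pairs. The levels of the microRNAs were not analysed here, and the search for hairpins was made after the data had been seen.

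Most distant pairs moved use downstream and a minority moved it upstream. Of the 548, 381 were called longer (69.5%, beside 84.7% of all listed pairs) and 167 shorter (30.5%, 95% exact binomial interval 26.6 to 34.5, beside 15.3% of all listed pairs). The share called shorter was 9.69% (interval 8.04 to 11.5) of pairs 1000 to 10000 nt apart and 11.6% (8.99 to 14.6) of pairs up to 1000 nt apart. These intervals cover counting error over genes, which are not replicates, and no test was made over them. Within the distant pairs the share called shorter was 24.7% of the 170 at 10000 to 20000 nt and 24.7% of the 198 at 20000 to 50000 nt. It was 33% of the 94 at 50000 to 100000 nt (interval 23.6 to 43.4) and 52.3% of the 86 beyond 100000 nt (41.3 to 63.2), where 45 were shorter and 41 longer.

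The usage change, a score of the authors whose scale is not stated, was of like size in both directions. Its median absolute value in the authors' deposited table was 0.227 in longer and 0.215 in shorter pairs, beside 0.212 over all 2220 pairs. An absolute change of at least 0.2 was found in 325 of the 548 (59.3%), beside 54.3% of all pairs. The authors' adjusted p was at most 0.04 among these pairs and was given as 0 for 28 of them. The plot of usage change against distance shows both directions side by side up to 100000 nt and beyond.

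**Figure D1:**
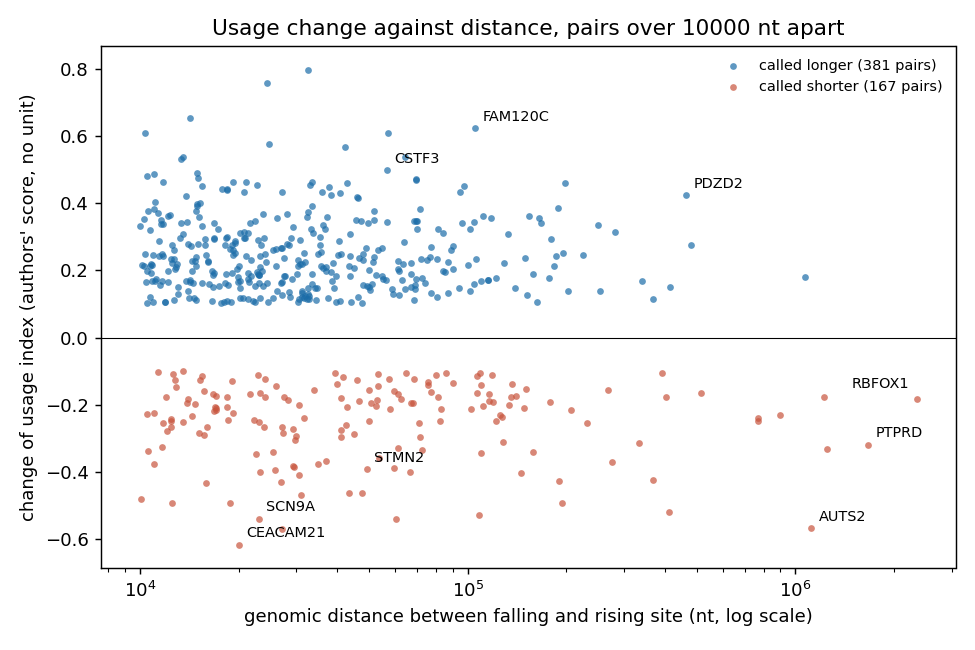
Change of the usage index in the authors' deposited table (vertical axis, score without unit) against the genomic distance from the falling to the rising site (horizontal axis, nt, log scale) for the 381 pairs called longer (blue, above 0) and the 167 called shorter (red, below 0). Each point is 1 pair; the 5 pairs farthest apart, from AUTS2 at 1118275 nt to RBFOX1 at 2346332 nt, are all shorter, and no point lies nearer to 0 than 0.1.

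At the limit itself, the pairs just beyond 10000 nt were YIPF4 (10007 nt, longer, 0.332), ZNF35 (10048 nt, shorter, -0.481) and MVD (10160 nt, longer, 0.216) in the authors' deposited table. Those just short of it were ZNF493 (9986 nt, shorter, -0.112), MRPS25 (9958 nt, longer, 0.236) and INTU (9954 nt, longer, 0.332) in the authors' deposited table.

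The strongest moves upstream were found in genes of several kinds. CEACAM21, an adhesion molecule of the carcinoembryonic antigen family on chromosome 19, changed by -0.615, with the rising site at 41566822 and the falling site at 41586843 (adjusted p = 4.39e-20 in the authors' deposited table). GSTO2, a glutathione transferase, changed by -0.569 over 27157 nt in the authors' deposited table. AUTS2, a nuclear regulator needed for neuronal development, changed by -0.567 over 1118275 nt of chromosome 7, from a falling site at 70792868 to a rising site at 69674593, with an adjusted p given as 0 in the authors' deposited table. BDH1, a mitochondrial enzyme of ketone body metabolism, had its rising site at 197572145 on chromosome 3, at 1.88% of the gene's length, with a change of -0.539 in the authors' deposited table. The sodium channel gene SCN9A changed by -0.538, and the phospholipase D family gene PLD5 by -0.518 over 411880 nt, in the authors' deposited table. ATP6V1E2, a subunit of the vacuolar proton pump, and AGBL4, a carboxypeptidase that trims glutamate chains from tubulin, each changed by -0.493 in the authors' deposited table. In all of these but ATP6V1E2 both sites lay inside the RefSeq gene; the falling site of ATP6V1E2 lay 12529 nt past its RefSeq end.

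The strongest moves downstream included genes without a RefSeq match, noncoding RNA genes and coding genes. ENSG00000273432 changed by 0.797 and ENSG00000269072 by 0.757 in the authors' deposited table, and neither had a RefSeq gene to place its sites against. ZFTRAF1 changed by 0.654 and FAM120C by 0.623 in the authors' deposited table, the latter over 105466 nt of the X chromosome from a site at 8.23% of the gene to its RefSeq end. TCF12-DT at 0.609 and FLRT2-AS1 at 0.608 are long noncoding RNA genes, and in both the rising site lay past the RefSeq end, by 26503 and 7079 nt, in the authors' deposited table. SLC22A5, the carnitine transporter, changed by 0.577 from a site at 4.34% of its length to a site at the RefSeq end, with an adjusted p of 1.36e-111 in the authors' deposited table. ZNG1F at 0.537, MIB2 at 0.532, a ubiquitin ligase of the Notch pathway, and CSTF3 at 0.498 also moved downstream in the authors' deposited table.

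The pairs farthest apart lay in genes that cover a long stretch of a chromosome. RBFOX1, a neuronal splicing regulator, spanned 2346332 nt of chromosome 16 between its rising site at 5367007 and its falling site at 7713339, with a change of -0.182 (adjusted p = 1.37e-12 in the authors' deposited table). PTPRD, a receptor phosphatase of synaptic adhesion, spanned 1669225 nt with a change of -0.318 in the authors' deposited table. RBMS3, an RNA-binding protein gene, spanned 1252049 nt with a change of -0.331, and its rising site lay before the RefSeq start, in the authors' deposited table. GALNTL6, of the glycosyltransferase family that starts mucin-type glycans, spanned 1225987 nt with a change of -0.177 in the authors' deposited table. With AUTS2 these are the 5 longest intervals in the shorter direction.

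In the longer direction the intervals reached less far in named genes. ENSG00000250349 on the X chromosome had the longest, 1073776 nt, with a change of 0.181, and the starts of 6 other coding genes, among them CYBB and OTC, lay inside it. FHIT, a nucleotide hydrolase at a fragile site, spanned 481766 nt with a change of 0.275, and PDZD2, a PDZ domain protein, 464404 nt with a change of 0.425, in the authors' deposited table. CREB5, a CREB family transcription factor, spanned 415135 nt at 0.150, and CCDC7 368276 nt at 0.116, in the authors' deposited table. The median distance was 28510 nt in longer and 43428 nt in shorter pairs.

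Placed on the RefSeq gene of the same name, most upstream sites lay in the first 50% of the gene, and most downstream sites lay near its end. Of the 548, 511 matched a RefSeq gene, and in 425 of them (83.2%, beside 91% of all matched pairs) both sites lay inside it, with 50 nt of slack. The downstream site then lay at a median of 3 nt before the RefSeq end in longer pairs and 30 nt before it in shorter pairs. It was within 100 nt of that end in 212 of 298 longer pairs (71.1%, beside 74.5% of all longer pairs inside a gene) and 67 of 127 shorter pairs (52.8%, beside 57.8%), 65.6% in all beside 72.2% of all pairs. The upstream site lay at a median of 35.2% of the gene's length in longer pairs, where it fell, and 30.3% in shorter pairs, where it rose. In 195 of 298 longer pairs (65.4%) and 85 of 127 shorter pairs (66.9%) it was in the first 50% of the gene, as it was in 20.9% of all pairs inside a gene. The distance limit itself selects long genes and early sites, so these values describe the pairs and are no finding on TDP-43. Median gene length was 69122 nt for longer and 111142 nt for shorter pairs.

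**Figure D2:**
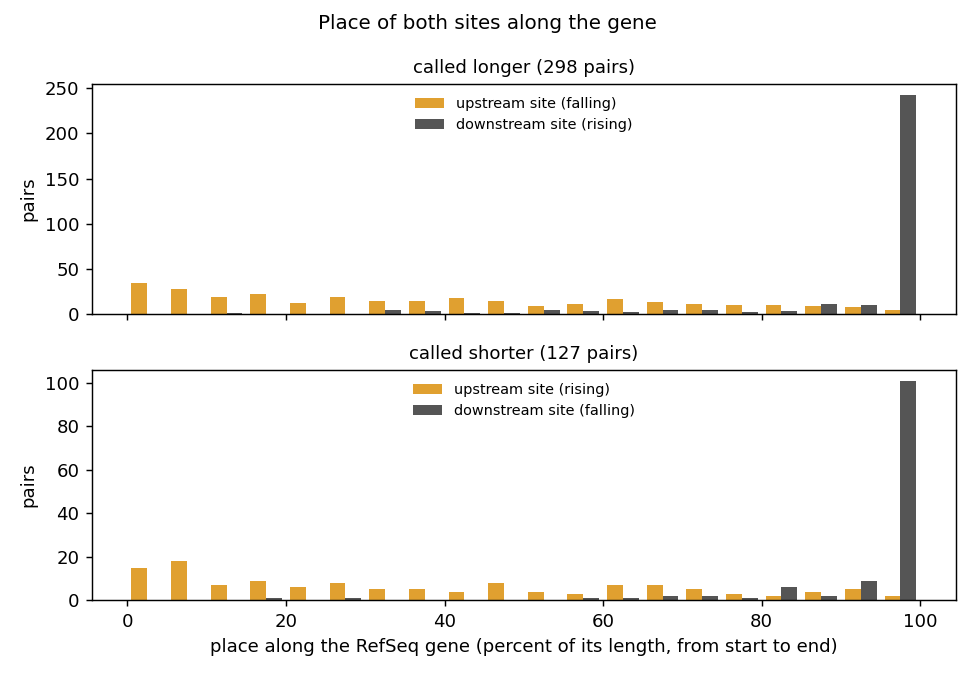
Place of both sites of each pair along its RefSeq gene (horizontal axis, percent of gene length from start to end, in steps of 5) and number of pairs (vertical axis), for the 298 longer and 127 shorter pairs with both sites inside the gene. Orange bars are the upstream site and grey bars the downstream site; the upstream sites spread over the gene with a median of 35.2% and 30.3%, while most downstream sites stand in the last bar.

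Pairs that reached outside the RefSeq gene did so at different ends. In the longer direction, 42 pairs had a falling site inside and a rising site past the RefSeq end, among them TCP11L1, ZNF345 and the kinase gene MAPK10. A further 12 had a falling site before the RefSeq start and a rising site inside, among them MADCAM1, ZFTRAF1 and MIR9-1HG. In the shorter direction, 13 had a rising site before the RefSeq start, among them ERCC1, RBMS3, MMRN2, CHKB and HLA-DMA, and 9 had a falling site past the end. The remaining 10 of the 86 had both sites before or both past the gene. These pairs rest on the authors' assignment of sites to genes, whose rule is not given in the sources used here.

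Alternative starts and other genes lay in some intervals. An annotated start of the same gene lay between the sites in 38 of 340 longer pairs and 27 of 141 shorter pairs with known starts (65 of 481, 13.5%, beside 3.61% of all pairs). CEACAM21, GSTO2, BDH1, PLD5, EGFR and ERCC1 were among the shorter ones and ZNG1F and MADCAM1 among the longer ones. In such genes a change in the start used and a change in the end used cannot be told apart from these tables. The start of another coding gene on the same strand lay between the sites in 7 of 518 (1.35%, beside 0.469%), in TFDP1, MFSD2B, LPCAT2 and 4 genes known by identifier. A longer interval has more room for a start of either kind, so the distance limit itself raises both shares. A start of the same gene lay between the sites in 8 of 1062 pairs 1000 to 10000 nt apart and 0 of 477 up to 1000 nt apart. Long noncoding RNA genes made up 70 of the 511 matched pairs (13.7%, beside 7.71%), 54 longer and 16 shorter.

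A cryptic site, in the authors' use, is one that control neurons hardly use. The rising site was in the authors' deposited table of cryptic sites for 86 of the 548 pairs (15.7%, interval 12.7 to 19, beside 8.96% of all pairs). By direction these were 46 of 167 shorter pairs (27.5%, interval 20.9 to 35, beside 20.4% of all shorter pairs) and 40 of 381 longer pairs (10.5%, interval 7.61 to 14, beside 6.91% of all longer pairs). At 1000 to 10000 nt the share was 17.1% of shorter and 7.92% of longer pairs. Up to 1000 nt it was 6.56% of shorter and 1.72% of longer pairs. The authors' deposited table placed 38 of the 46 in introns, 4 in exons and 4 in 3'UTRs. Of those 38, 4 lay before the RefSeq start and 1 had no RefSeq match. Of the 40 that table placed 19 in introns, 6 in exons and 15 in 3'UTRs, and 9 of those 19 lay past the end of the RefSeq gene. Intronic sites made up 22.8% of the 167, beside 13% of all shorter pairs, and 4.99% of the 381, beside 1.81% of all longer pairs. In nearer shorter pairs they were 6 of 111 at 1000 to 10000 nt and 0 of 61 up to 1000 nt. Distant sites seldom share a 3'UTR, so the distance limit itself raises these shares. The cryptic table comes from the same libraries and lists sites of low use in control, so it gives the size of the gain and no separate evidence of it. No falling site was in it, which follows from that low use, since such sites have little use to lose.

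In the shorter direction, the authors' deposited table placed the sites with the highest use in the knockdown in introns. That of ERCC1 lay before the RefSeq start of the gene. GSTO2 went from 4.31% in control to 61.1% in the knockdown in the authors' deposited table, which has 1 value per group. AUTS2 went from 4.47% to 60.7%, SCN9A from 4.14% to 60.3% and PLD5 from 4.44% to 60.1% in the authors' deposited table. AGBL4 went from 3.42% to 53.0% and MROH1 from 3.56% to 52.7% in the authors' deposited table. EGFR, the receptor tyrosine kinase for epidermal growth factor, went from 5.82% to 47.6% at a site 2169 nt after its RefSeq start in the authors' deposited table. STX5, a Golgi SNARE protein, went from 2.91% to 46.5%, and ERCC1, a DNA repair endonuclease subunit, from 1.34% to 41.2%, in the authors' deposited table. STMN2, whose product stathmin-2 regulates microtubules in growing axons, went from 0.0207% to 39.0%, with the lowest control use of the 86 sites, in the authors' deposited table. The median knockdown use over the 46 was 27.1% and over the 40 in the longer direction 21.4%.

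The cryptic sites used most in the longer direction were of mixed kind. ZNF496-DT, a noncoding RNA gene, went from 5.15% to 52.0% at an exonic site, and KNDC1, a Ras exchange factor of neuronal dendrites, from 5.72% to 47.3% at a 3'UTR site, in the authors' deposited table. ADCY8, an adenylyl cyclase stimulated by calcium, went from 3.79% to 42.3% within an intron in the authors' deposited table. At 3'UTR sites, NSL1, a kinetochore protein, reached 40.3%, FGF13, a modulator of sodium channels, 36.8%, NCKAP1, an actin regulator of the WAVE complex, 34.8% and ZNF429 32.4% in the authors' deposited table. TSTD3 reached 34.4% at an exonic site, FHIT 32.0% and YARS2, the mitochondrial tyrosyl-tRNA synthetase, 30.5% at intronic sites in the authors' deposited table. The plot of site usage in both groups shows the STMN2 line starting well below all others.

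**Figure D3:**
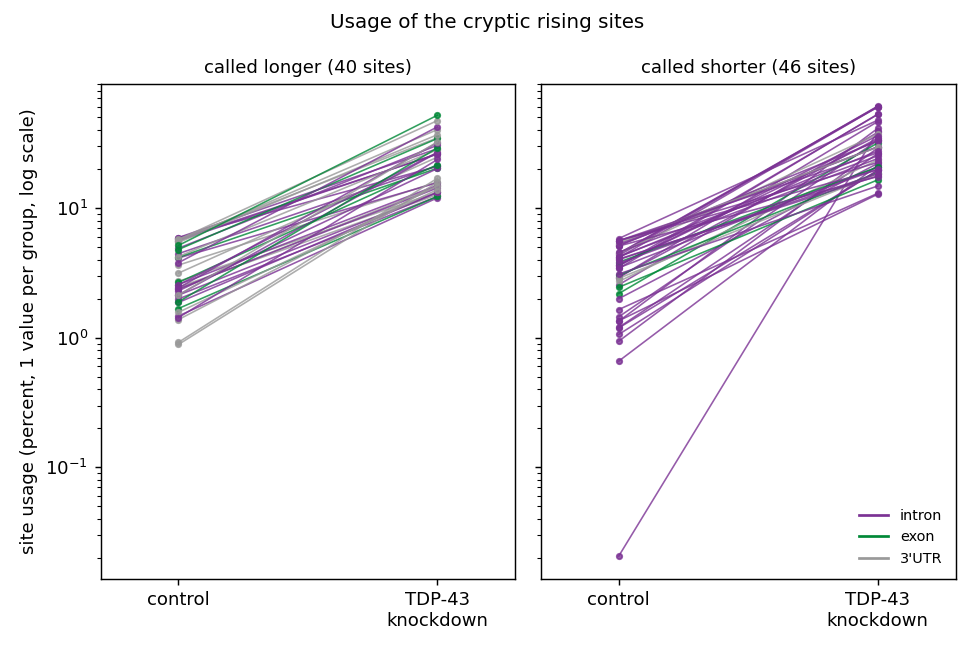
Usage of the cryptic rising site (vertical axis, percent, log scale) in control and in the TDP-43 knockdown for the 40 longer and 46 shorter pairs that have one. Each line is 1 site with 1 deposited value per group; purple lines are intronic, green exonic and grey 3'UTR sites, and control values span 0.0207% to 5.92% against knockdown values of 12% to 61.1%.

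Splicing was compared on the RNA-seq libraries, which are separate from the 3' end-seq libraries. The authors' deposited table lists introns by cluster, with the change of each intron's share of its cluster in percentage points; shares within a cluster sum to 0 change. It does not say which group was subtracted, and positive is read here as higher in the knockdown because of the STMN2 junction that is known to appear when TDP-43 is lost. Under the opposite reading every direction in the next paragraphs would be exchanged. A listed cluster was found in the genes of 122 of the 548 pairs (22.3%, interval 18.8 to 26, beside 19% of all pairs).

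A junction that gained share and ended within 1000 nt upstream of the rising site was listed for 10 pairs (1.82%, beside 0.811% of all pairs). These were 6 shorter pairs (3.59%, beside 2.06% of all shorter pairs) and 4 longer pairs (1.05%, beside 0.585% of all longer pairs). At 1000 to 10000 nt such a junction was listed for 1 of 111 shorter and 1 of 1035 longer pairs. Up to 1000 nt it was listed for 0 of 61 shorter and 6 of 465 longer pairs. The count of distant pairs depends on the window: it was 5 pairs (0.912%) within 500 nt and 43 pairs (7.85%) within 5000 nt. In STMN2 on chromosome 8 the intron from 79611214 to 79616822 gained 44.9 points and ended 226 nt before the rising site (cluster adjusted p = 3.01e-11 in the authors' deposited table). In SERGEF, a guanine nucleotide exchange factor involved in secretion, an unannotated intron from 17863782 to 17866791 on chromosome 11 gained 22.5 points and ended 192 nt before the rising site at 17863590 (cluster adjusted p = 2.55e-11 in the authors' deposited table). The annotated intron that ends 362 nt before the falling site of SERGEF changed by -51.2 points in the authors' deposited table. OLFM1, a secreted neuronal glycoprotein, had an annotated intron that gained 21.2 points and ended 320 nt before the rising site (cluster adjusted p = 0.0016 in the authors' deposited table). In STAU2, a carrier of RNA into dendrites, the gain was 13.3 points, and in PIGL, at an unannotated 3' splice site, 7.3 points, in the authors' deposited table. Among longer pairs, DNAJC13, an endosomal chaperone gene, gained 15.1 points, POLR2F, an RNA polymerase subunit, 8.7 points and ASPHD1 3.9 points in the authors' deposited table. ENSG00000291136, a shorter pair, gained 3.0 points and GRK4, a longer pair and a receptor kinase gene, 0.6 points in the authors' deposited table.

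At the falling site, listed junctions were found mostly in longer pairs. A junction that lost share and ended within 1000 nt upstream of the falling site was listed for 27 of 381 longer pairs (7.09%, beside 3.35% of all longer pairs) and 3 of 167 shorter pairs (1.8%, beside 1.77%), 30 in all (5.47%, beside 3.11% of all pairs). In 5 further longer pairs the junction there gained share, the largest being 27.8 points in the pseudogene SDHAP4 in the authors' deposited table. ALG13, which acts at the start of protein N-glycosylation, had an intron that changed by -35.0 points and ended 910 nt before the falling site (cluster adjusted p = 0.0041 in the authors' deposited table). EIF4E2, a cap-binding repressor of translation, and ITFG2, a regulator of nutrient signalling, each had one at -27.7 points in the authors' deposited table. SUSD4, a membrane regulator of complement, had one at -20.2 points that ended 183 nt before the site, and SLC12A5, the neuronal potassium-chloride cotransporter, an unannotated one at -10.1 points, in the authors' deposited table. The 4 genes after ALG13 were picked after their values were seen.

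When the upstream site lies inside an intron, splicing that intron removes the site from the transcript. An intron that spans the upstream site, on the same strand by its cluster's identifier, was listed for 80 of the 548 pairs (14.6%, beside 5.32% of all pairs). It was listed for 2.79% of pairs 1000 to 10000 nt apart and 1.14% of those up to 1000 nt apart. Distant upstream sites more often lie in an intron, so the distance limit itself can raise this share. The changes of all spanning introns of a pair were added up. In shorter pairs, where the upstream site rose, the net share of the spanning introns was lower in 19 of 27 (70.4%, interval 49.8 to 86.2), higher in 6 and 0 in 2, with a median of -8.2 points. In longer pairs, where the upstream site fell, it was higher in 42 of 53 (79.2%, interval 65.9 to 89.2) and lower in 11, with a median of 4.6 points. Over all distances, with these 27 and 53 pairs making up most of the total, the net share was lower in 66.7% and higher in 27.8% of 36 shorter pairs. It was higher in 78% and lower in 18.3% of 82 longer pairs. At 1000 to 10000 nt alone it was lower in 5 and higher in 3 of 8 shorter pairs. Of 24 longer pairs there, it was higher in 19 and lower in 3. At up to 1000 nt it was higher in the 1 shorter pair, and higher in 3 and lower in 1 of 5 longer pairs. Over all distances and both directions it was higher in 62.7% and lower in 33.1% of 118, and of all 15980 listed introns 47.9% were higher and 47.6% lower. A net of 0 arises by construction where every intron of a cluster spans the site, as in E2F5 and FLOT2. The authors' deposited table marks the spanning introns of EDIL3-DT, VPS13B-DT and PCBP3 as of unknown strand. Without such introns the counts were 18 of 26 shorter and 41 of 51 longer pairs. STMN2 is among the 19 and set the reading of the sign. The sum over spanning introns was chosen after the data had been seen and carries no test. Some spanning introns share a cluster with the junctions near the sites given above, so these results are not independent of each other.

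Large losses of spanning introns in shorter pairs were found at SERGEF with -67.1 points over 2 introns, STMN2 with -26.4 and DTNA with -24.4 in the authors' deposited table. The sum for SERGEF includes the intron at -51.2 points already given for its falling site. DTNA encodes a dystrobrevin of the dystrophin complex. In ITSN1, an endocytic scaffold with a short and a long form, the intron from 33836632 to 33856736 on chromosome 21 changed by -21.8 points in the authors' deposited table, and its usage change was -0.327. Spanning introns also lost share at OLFM1 with -21.2, STAU2 with -19.6, MTFR1 with -17.4 and the kinase PAK4 with -15.5 points in the authors' deposited table. In SERGEF, STMN2, OLFM1 and STAU2 these introns share a cluster with the junction that gained share near the rising site. Loss and gain are therefore not separate observations in these genes. The shorter pairs whose spanning introns gained share were led by ZNF790-AS1 with 12.0 and ZNF568 with 5.0 points in the authors' deposited table.

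Large gains in longer pairs were found at ALG13 with 35.0 points and ZNF345 with 30.9 in the authors' deposited table. ITFG2 gained 26.8 points, LINC01278 26.5, GNB1L 25.7 and SUSD4 20.2 in the authors' deposited table. In ITFG2 the spanning introns share a cluster with the junction at -27.7 points near the falling site. The gains of ALG13 and SUSD4 are the other side of the losses of -35.0 and -20.2 points near their falling sites. Shares within a cluster sum to 0 change, so each is 1 observation. ELAVL4, a neuronal RNA-binding protein, gained 16.9 points of the intron from 50177192 to 50193765 on chromosome 1 and moved use downstream by 22473 nt, with a change of 0.154 in the authors' deposited table. SLIT3, a secreted axon guidance cue, gained 13.9 points in the authors' deposited table. ZNF680 with -10.3 points and WDFY3-AS2 with -5.2 were the furthest in the other direction in the authors' deposited table. Among pairs with a cryptic rising site, a spanning intron was listed for 9 of the 46 shorter and 5 of the 40 longer pairs. These are near the shares over all distant pairs, 27 of 167 shorter (16.2%) and 53 of 381 longer (13.9%).

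**Figure D4:**
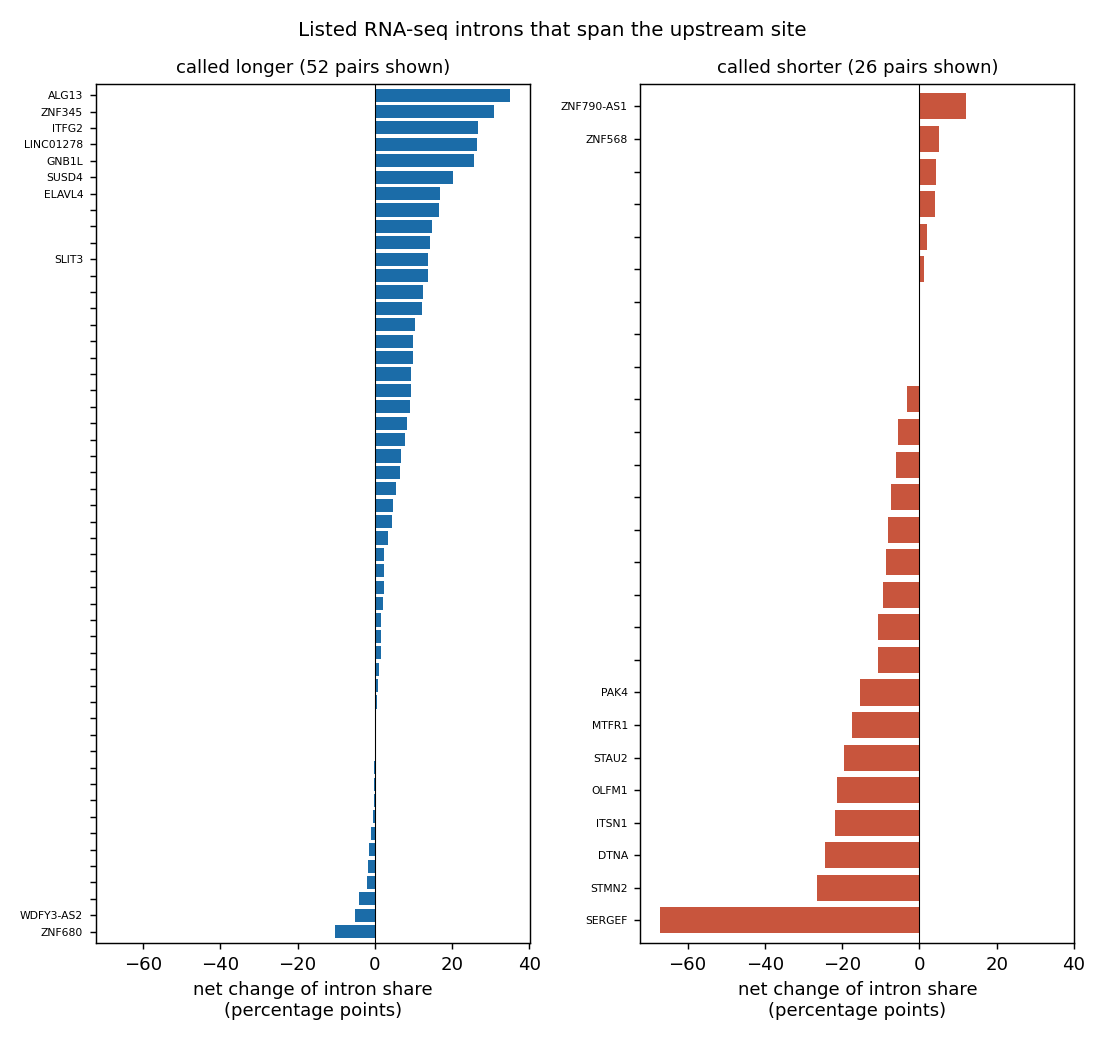
Net change of the share of listed RNA-seq introns that span the upstream site (horizontal axis, percentage points, sum over the introns of a pair), 1 bar for each pair that has one, with 1 longer and 1 shorter pair not shown and names at some bars. Most bars point to gain in the longer pairs and to loss in the shorter pairs, as in the counts of 42 of 53 and 19 of 27 pairs, with SERGEF the longest bar at -67.1.

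Polyadenylation called from RNA-seq coverage listed few of the distant genes. Of the 548, 25 were in a gene of that list (4.56%, interval 2.97 to 6.66, beside 10.6% of all pairs), 24 called distal (4.38%, beside 10.2%) and 1 proximal (0.182%, beside 0.405%). The largest values were those of GLB1, the lysosomal beta-galactosidase, at 1.99, UBE2E3, a ubiquitin-conjugating enzyme, at 1.75 and CRAT, carnitine acetyltransferase, at 1.74 in the authors' deposited table, and all were called longer in 3' end-seq. This index is on another scale than the 3' end-seq change, so their sizes are not compared. Of 21 longer pairs in the list, 20 were called distal (5.25% of the 381, beside 11.6% of all longer pairs) and 1 proximal (0.262%, beside 0.106%). The proximal one was MYO19, a motor of mitochondria on actin, with -1.17 in RNA-seq and 0.155 in 3' end-seq in the authors' deposited tables.

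All 4 shorter pairs in that list were called distal from RNA-seq (2.4% of the 167, beside 2.06% of all shorter pairs called distal and 2.06% called proximal). PAK4 had an RNA-seq value of 1.46 against -0.383 in 3' end-seq, and TNIP1, an inhibitor of NF-kappaB signalling, 0.707 against -0.357, in the authors' deposited tables. TIAM2, a Rac exchange factor, had 0.599 against -0.176, and ZZZ3, a chromatin reader, 0.667 against -0.123, in the authors' deposited tables. The sites behind an RNA-seq value are not given there, so the assays may describe different sites of these genes. Of nearer shorter pairs, 2 were in a gene called distal and 4 in one called proximal at 1000 to 10000 nt, and 1 and 3 at up to 1000 nt. No test of that difference was made.

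By function, genes of the 14 lists fell on both sides, with counts too small to rank the lists; of all 2220 pairs, 24.7% were distant. Voltage-gated ion channels, which shape the firing of neurons, had 10 genes in the table and 8 of them were distant pairs, 6 longer and 2 shorter. KCNC2 at 0.382, KCNH1 at 0.293 and KCNC4 at 0.118, which carry potassium currents, were longer in the authors' deposited table. CACNA2D3 at 0.251, CACNA1B at 0.22 and CACNA1I at 0.215, which make calcium channels, were longer in the authors' deposited table. SCN9A at -0.538 and the potassium channel gene KCNH7 at -0.106 were shorter in the authors' deposited table, both with a cryptic intronic site; that of KCNH7 went from 5.09% to 17.5%. KCNC4 also had a cryptic rising site, at 1.57% and 13.9%, in the authors' deposited table.

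Factors of cleavage, polyadenylation and termination had 9 genes in the table, all longer, and 5 were distant pairs. CSTF3, a subunit of the cleavage stimulation factor, moved from position 33141431 to position 33084584 on chromosome 11, at its RefSeq end, with a change of 0.498 in the authors' deposited table. SSU72, a phosphatase of the RNA polymerase tail, had 0.434 and RBBP6, which activates cleavage, 0.359, from a site 1019 nt after the RefSeq start, in the authors' deposited table. WDR33, which reads the AAUAAA signal, had 0.219 and the poly(A)-binding zinc finger protein ZC3H14 0.108 in the authors' deposited table. With 84.7% of all pairs called longer, an all-longer set of this size is no sign of a direction of its own.

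Transcription factors and chromatin regulators had 7 distant pairs of 23 in the table, 4 longer and 3 shorter. Among them, AUTS2, the homeobox factor CUX1 at -0.394 and SOX6 at -0.164 were shorter, and the leukaemia-associated chromatin factor MLLT10 at 0.243, the histone demethylase KDM4C at 0.168 and CREB5 were longer, in the authors' deposited table. RNA-binding proteins had 4 of 12, with RBMS3, RBFOX1 and STAU2 (-0.113) shorter and ELAVL4 longer in the authors' deposited table. Kinases and phosphatases had 5 of 16: PTPRN2 at -0.249 and STK3 at -0.105 were shorter, and PPP2R5C at 0.359, MAPK10 at 0.226 and ATM at 0.147 were longer, in the authors' deposited table. The adjusted p of ATM, the kinase that signals DNA breaks, was 0.0339, near the limit of 0.05, in the authors' deposited table.

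In the axon guidance and cell adhesion list 3 of 12 were distant pairs. EPHA5, a receptor for ephrins, at -0.371 and the protocadherin gene PCDH9 at -0.229 were shorter and SLIT3 at 0.233 longer in the authors' deposited table. The synaptic adhesion, release and receptor list had 2 of 8, and PTPRD at -0.318 and LRRTM4, a postsynaptic adhesion protein, at -0.238 were shorter in the authors' deposited table; both had a cryptic rising site, used at 33.3% and 29.5% in the knockdown. Cytoskeleton and transport genes had 4 of 13, STMN2 at -0.391 and DIAPH2 at -0.177 shorter, and MAP4, a microtubule-associated protein, at 0.179 and KATNAL2 at 0.116 longer, in the authors' deposited table. Small GTPase regulators had 3 of 8, ARHGAP22 at -0.309 and TIAM2 shorter and IQSEC2 at 0.159 longer, in the authors' deposited table. The ubiquitin, autophagy and lysosome list had 3 of 16. Of these, the ubiquitin ligase gene HECW1 was shorter at -0.191, and LAMP2, a lysosomal membrane protein with several last exons, at 0.249 and UBE2E3 at 0.247 were longer, in the authors' deposited table. ALS and FTD genes had 2 of 3, 1 longer and 1 shorter, the latter being STMN2. Of 38 reported TDP-43 targets, 7 were in the table at any distance, and STMN2 was the single distant pair of these 7. No gene of the pluripotent stem cell list or of the glia and progenitor list was in the table at any distance.

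**Figure D5:**
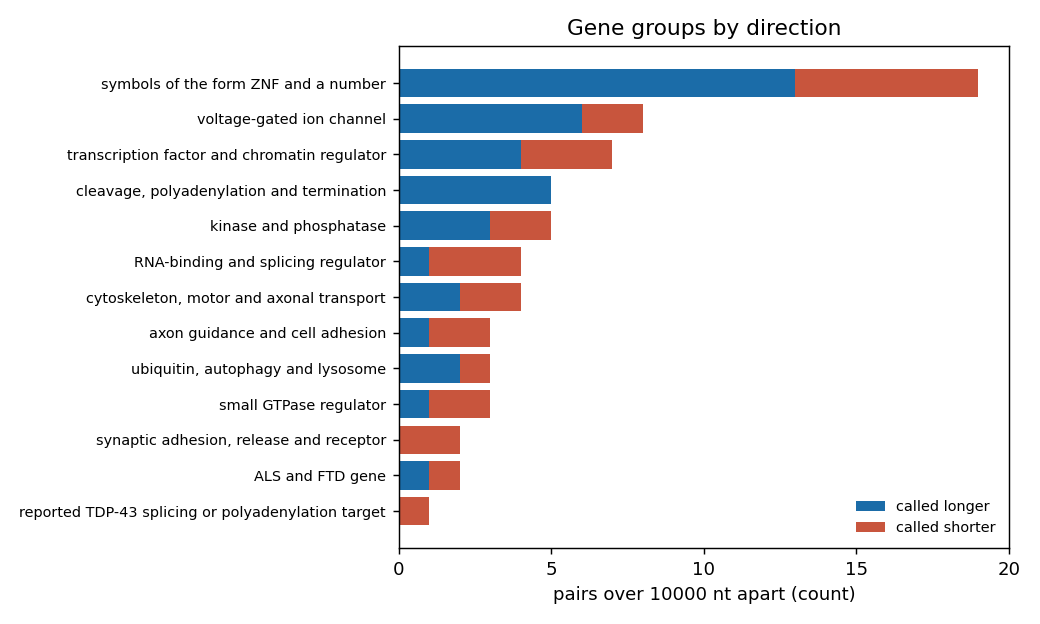
Number of distant pairs (horizontal axis, count) in each gene list that has one, and in genes named ZNF and a number, with longer pairs in blue and shorter pairs in red. Voltage-gated ion channels have 8 pairs, 6 of them longer, and the cleavage and termination list has 5, all longer; the lists were drawn up with earlier results of these data known.

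Zinc finger genes named ZNF and a number, a large family of DNA-binding repressors, had 19 distant pairs of 73 in the table, near the 24.7% of all pairs. Of the 19, 13 were longer and 6 shorter, with a median absolute change of 0.21 in the authors' deposited table, beside 0.226 over all distant pairs. ZNF35 at -0.481 and ZNF345 at 0.464 were the largest in each direction in the authors' deposited table.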

How the data were processed

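Only tables of the authors' own comparisons were used; no table with values per library entered. The change of the usage index in 3' end-seq and in RNA-seq, and the change of intron share, are scores that the authors deposited, and the scales of both indices are not stated. The adjusted p-values are those the authors deposited, and the tables list only items at p up to 0.05, so the number tested is not known. No listed 3' end-seq change was nearer to 0 than 0.1, so medians and shares of the usage change describe listed pairs above that size. Usage of a cryptic site is a fraction the authors deposited with 1 value per group, printed as a percent; its denominator is not stated, and 2 repeated lines were counted once. Per the submitters' processing notes, the build is hg38 and the tools include STAR, Salmon, fastp, SAMtools and DESeq2. Which programs called the site changes and cryptic sites is not given in the sources used here. Of a gene table, the 6 per-sample columns stayed unused, since no label ties them to samples, so the planned comparison of expression was not run.

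Pairs were taken over 10000 nt apart. Sites were matched to cryptic sites by position and strand, to other tables by symbol or RefSeq synonym, and to the RefSeq gene (GRCh38.p14) of the same symbol and chromosome; 40 of the 548 had no symbol in the table, and 30 lay on chromosomes without starts in the start table. Promoter sequences of genes on opposite strands agreed in 2568 of 2568 overlaps, which fixed the strand of the printed bases. Intervals are 95% exact Clopper-Pearson over pairs and cover counting error only. Simulated data with known answers were used to test the interval and junction functions. Software was matplotlib 3.10.9, SciPy 1.17.1, pandas 2.3.3 and numpy 2.4.6 under Python 3.11.15.

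The pairs and the gene lists were chosen with earlier results of these data known. Genes were named by this rule: the 8 largest changes and 5 greatest distances in each direction, the 10 cryptic sites with the highest knockdown usage in each direction, up to 6 members per list, genes called oppositely by both polyadenylation tables, the 8 largest nearby junctions, and 3 pairs on each side of the limit. Genes named under places, starts, hairpins, spanning introns, zinc finger genes and falling-site junctions, and GLB1, UBE2E3 and CRAT for RNA-seq, were chosen after their values were seen. Some genes are not reported here.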

Additional observations from a re-analysis of the deposited data

How the results depend on the processing

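Of 67 alternatives run for 10 results, 57 stayed inside the interval of the value reported. The share called shorter was 25.3% with a limit of 5000 nt. The share in genes of the RNA-seq polyadenylation table was 7.8% with a limit of 5000 nt and 2.38% with 20000 nt. Requiring a change of at least 0.2 raised the median absolute change to 0.295, by construction. With both sites inside the RefSeq gene, the share in genes with a listed splicing cluster was 26.8%, that with another gene's start between the sites was 0.498%, and that with both sites inside was 100% by construction. A window of 5000 nt raised the share with a rising junction near the rising site to 7.85%. For spanning introns, alternatives added after the data were seen included a net change of at least 5 points, which gave 89.5% of 19 shorter and 92.9% of 28 longer pairs. No paired analysis was possible because the tables used hold no value per library. Leaving out libraries and the alternatives planned for expression were likewise not run. The depth is unknown, and a site or intron not listed may have been unchanged, changed too little to be listed, or not tested.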

Other observations

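Some pairs at all distances, distant ones among them, met the site of a gene on the other strand. Of 25 combinations of sites in the table on opposite strands within 500 nt of each other, 7 involved a distant pair, in 7 genes. The other combinations held nearer pairs only, and distant pairs made up 24.7% of all 2220 pairs. A combination joins sites of different pairs, so these shares cannot be compared directly. Such meetings were not shown to be more frequent among distant pairs. The rising sites of TCP11L1 and of CSTF3, which converge on chromosome 11, lay 9 nt apart, at 33084575 on the plus strand and 33084584 on the minus strand. TCP11L1 reached that point 11012 nt past its RefSeq end, while for CSTF3 it is the RefSeq end, and both were called longer, with changes of 0.487 and 0.498 in the authors' deposited table.

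ASPHD1 and KCTD13 on chromosome 16 overlap on opposite strands and were mirror images. ASPHD1 moved from 29906054 to 29919862 and KCTD13 from 29919635 to 29906341, so each rising site lay beside the other gene's falling site, 227 and 287 nt apart. Their changes were 0.421 and 0.341 in the authors' deposited table. KCTD13 is an adaptor of a ubiquitin ligase. The rising site of CEP68, a centrosome protein gene, lay 149 nt from the rising site of RAB1A, a GTPase of transport from the endoplasmic reticulum, whose own pair is 1000 to 10000 nt apart. The falling site of GLT8D2, a shorter pair, lay 121 nt from the rising and 221 nt from the falling site of the DNA glycosylase gene TDG. The rising site of DDHD2, a phospholipase gene, lay 371 nt from that of PLPP5 on chromosome 8. These combinations were found after the data had been seen.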
